A study of Homo sapiens with 6 samples.

Results

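The library labelled LZTFL1 was compared with the library labelled GFP among those labelled TGFβ in HCC95, a cell line established from a squamous carcinoma of the lung. By their labels, the 2 arrays were 1 of HCC95 carrying pSIn-E2F-LZTFL1-ires-GFP-puro with TGFβ and 1 of HCC95 carrying pSin-E2F-GFP-puro with TGFβ. By name both vectors carried GFP and a puromycin marker, and the dose and duration of TGFβ are not given in the labels. The members were the genes whose probe was detected, at a detection p under 0.01, on at least 1 of the 2 arrays. They numbered 9485 of the 20046 named genes on the array, from 15143 detected probes of 47323. The series held 6 Illumina HumanHT-12 v4 arrays in all, 1 for each group, and the other HCC95 pair, the same 2 vectors labelled as untreated, is given here beside the TGFβ-labelled pair. Each group had 1 array, so no difference below has a replicate check or a p-value, and each one compares 2 libraries and not 2 conditions.

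LZTFL1 is a leucine zipper protein that binds the BBSome, a complex that sorts membrane proteins into and out of the primary cilium and through which Smoothened of the Hedgehog pathway passes. It has been studied as a tumor suppressor in lung epithelium. TGFβ binds a receptor kinase pair that phosphorylates SMAD2 and SMAD3, and in epithelial cells it can drive epithelial-mesenchymal transition (EMT), in which junction and keratin genes give way to matrix, protease and mesenchymal cadherin genes.

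Neither label could be borne out by the genes it concerns, so the libraries are called by their labels only. The normalized log2 level of the LZTFL1 probe was 5.07 on the LZTFL1-labelled array and 5.40 on the GFP-labelled array, and it was detected on neither. In the untreated pair it was 5.07 with the LZTFL1 label and 5.75 with the GFP label, so it was higher with the LZTFL1 label in neither pair. Whether this probe lies inside the vector's insert is not known here. PMEPA1, a direct SMAD target, had 6.21 (LZTFL1) and 7.16 (GFP) in the TGFβ-labelled libraries, against 9.53 (LZTFL1) and 9.38 (GFP) in the untreated ones. FST, another target, had 11.17 and 12.13 in the TGFβ-labelled libraries, against 13.10 and 13.18 in the untreated ones, in the same order of vectors. SMAD7, the feedback inhibitor, had 6.54 and 6.68 against 7.35 and 7.28, and THBS1, SNAI2 and CDH2 were lower in the TGFβ-labelled library of each vector too. ID1 (9.79 and 9.71 against 8.80 and 8.85) was higher in the TGFβ-labelled ones. IGFBP3 (8.16 and 9.93 against 6.59 and 8.86) and the MIR21 probe (6.51 and 8.44 against 5.51 and 7.51) were higher there too. Several textbook targets thus lay opposite to the TGFβ label, but not every gene named here did. The 2 arrays had median signal intensities of 117 and 104, within the 104 to 125 of the 6 arrays, and 14232 and 14136 detected probes, fewer than the 14715 to 16423 of the other arrays. Markers of the labelled type were present. All 5 epithelial markers (EPCAM, CDH1, KRT8, KRT18 and KRT19) and all 5 squamous or basal markers with a named probe (KRT5, KRT14, SOX2, DSG3 and SERPINB5) were detected on both arrays, while KRT6A, KRT17 and TP63 were not analysed here. The summed linear level of the epithelial markers was 17447 in the LZTFL1-labelled and 14675 in the GFP-labelled library, and that of the squamous or basal markers was 11978 in the LZTFL1-labelled and 14065 in the GFP-labelled library. Of 8 stromal markers only THY1 and ACTA2 were detected, with COL1A1, COL1A2, COL3A1, DCN, LUM and PDGFRB detected on neither array. The summed level was 799 in the LZTFL1-labelled and 1855 in the GFP-labelled library. Most of it came from 1 gene, THY1 (log2 9.41 in the LZTFL1-labelled and 10.78 in the GFP-labelled library). ACTA2 had 5.98 and 6.16 in the same order. VWF alone of 4 endothelial markers and CD68 alone of 5 measurable white blood cell markers were detected, and the neuroendocrine markers CHGA, SYP and NCAM1 were not. Another neuroendocrine marker, CHGB, was detected on both arrays, with 9.68 in the LZTFL1-labelled and 8.45 in the GFP-labelled library.

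The LZTFL1 and GFP arrays were alike for most genes. Over the 9485 genes the median difference, LZTFL1 minus GFP, was 0.02 on the log2 scale, with quartiles of -0.20 and 0.24, and 52.8% of genes lay above 0 and 46.9% below. Of them 38 were at least 2-fold higher in the LZTFL1-labelled library (0.401%) and 82 were at least 2-fold lower (0.865%). Among the higher genes 34 were detected on both arrays and 4 were bounds, where the gene was detected on the LZTFL1-labelled array alone. Among the lower genes 68 were detected on both arrays and 14 were bounds. A bound was measured against the lowest detected level of the array that lacked the gene, 5.68 for LZTFL1 and 5.70 for GFP, and is written "at least". At the higher limit TBC1D32 lay just inside at 1.00 and C6orf15 just outside at 0.99, both bounds, and at the lower limit TMEM156 lay just inside at -1.001 and RPL28 just outside at -0.997. The 2-fold genes came from the whole range of levels up to about that of CCND3 (10.87 in the LZTFL1-labelled and 9.84 in the GFP-labelled library), and the differences narrowed among brighter genes.

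**Figure D1:**
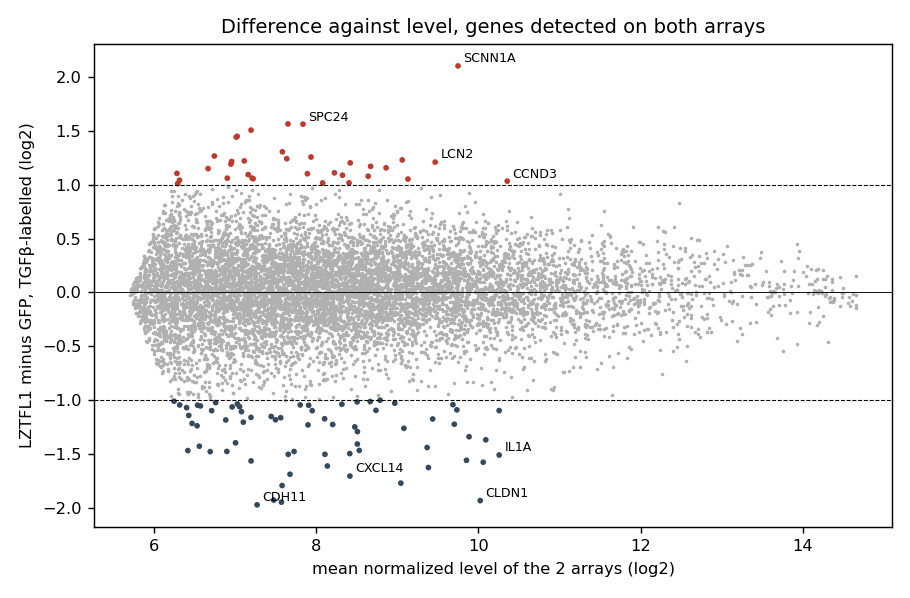
Each point is 1 of 8586 genes detected on both arrays, with the mean of its LZTFL1 + TGFβ and GFP + TGFβ log2 levels on the horizontal axis and LZTFL1 minus GFP on the vertical axis. Coloured points beyond the dashed lines are the 34 genes at least 2-fold higher (red) and the 68 at least 2-fold lower (dark), with SCNN1A the highest at 2.10 and CDH11 the lowest at -1.97.

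The lowest gene was a matrix metalloproteinase. MMP10, stromelysin-2, is a secreted protease that cleaves matrix proteins. Its log2 level was 5.49 and not detected in the LZTFL1-labelled library, against 10.12 in the GFP-labelled library. The non-normalized signal was 136 in the LZTFL1-labelled and 1042 in the GFP-labelled library. MMP10 was thus at least 21.6-fold lower in the LZTFL1-labelled library, and it was the only lower gene past 4-fold. In bulk RNA such as this, fewer cells that make a transcript and less of it per cell cannot be told apart. In the untreated pair its difference was -4.30. The 250 bases before the MMP10 start are printed because they hold, 67 bases before the start, the letters TGANTCA that the AP-1 factors (FOS and JUN dimers) recognise, along with a TATAAA box, both in capitals (RefSeq, GRCh38.p14, chr11:102780629-102780878, minus strand, written 5′ to 3′).
MMP10: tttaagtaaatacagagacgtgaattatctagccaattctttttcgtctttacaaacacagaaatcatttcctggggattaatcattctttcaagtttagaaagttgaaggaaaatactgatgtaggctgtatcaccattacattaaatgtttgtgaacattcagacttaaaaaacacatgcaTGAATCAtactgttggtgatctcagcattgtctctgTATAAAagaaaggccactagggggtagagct
Each of 9 motifs was searched, chosen with the results known. Read on both strands, TGANTCA was in 290 (3.75%) of the 7732 measured genes with a promoter sequence, in 8 (12.3%) of the 65 lower genes with one and in 1 (4.17%) of the 24 higher genes with one. The 8 lower genes were CXCL14, GBP6, IL1A, MMP10, NCKAP5, SERPINB13, SLC7A8 and TMEM156, and the higher gene was LCN2. TATAAA was in 16.9% of the lower and 12.5% of the higher genes, against 5.16% of all. The SMAD box CAGACA was in 15.4% of the lower and 8.33% of the higher genes, against 9.40% of all. The E-box CACCTG was in 21.5% of the lower genes and, more often, in 33.3% of the higher genes, against 15.7% of all. Other motifs were no more frequent in the lower genes: the ETS letters CCGGAAG were in 6.15% against 16.5% of all, TGACGTCA in 1.54% against 3.22%, GCGTG in 43.1% against 46.6%, and the NF-κB motif in 0% against 0.233%. A match describes letters in a window and does not show that a factor binds there. Of the AP-1 subunit mRNAs FOS was at 0.29, FOSL1 at -0.15, JUNB at -0.18, JUND at -0.37 and ATF3 at -0.49, and JUN at -0.57 lay near the lowest 5% of all genes (-0.60).

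Only MMP10 and ADAM9 were past 2-fold among the 12 genes measured in the protease list. ADAM9, a membrane sheddase, had 6.99 in the LZTFL1-labelled and 8.47 in the GFP-labelled library, a difference of -1.48, and ADAM10, the main sheddase of Notch and of E-cadherin, differed by -0.86. ADAM17, which releases TNF and EGF receptor ligands, was at 0.37. The urokinase PLAU was at -0.32 and its receptor PLAUR at 0.00, so the plasminogen activator genes did not share the difference of MMP10. Of the 12 genes 6 lay above 0, with a list median of -0.16 that became 0.00 over genes detected on both arrays and 0.05 without the detection filter.

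Matrix genes split. Tenascin C (TNC), a glycoprotein of remodelled matrix, had 7.67 in the LZTFL1-labelled and 9.16 in the GFP-labelled library, a difference of -1.50, and its other probe gave -2.88. Thrombospondin 1 (THBS1), an activator of latent TGFβ, had 6.91 in the LZTFL1-labelled and 8.41 in the GFP-labelled library, also -1.50. Both were past 2-fold lower in the LZTFL1-labelled library. On the other side, osteopontin (SPP1) had 7.74 in the LZTFL1-labelled and 6.29 in the GFP-labelled library, 1.44 higher, with 0.51 on its other probe. CEMIP, which degrades hyaluronan, had 8.26 in the LZTFL1-labelled and 7.02 in the GFP-labelled library, 1.24 higher. Of the 10 matricellular genes 4 lay above 0 and 6 below, with a median of -0.44 against 0.45 in the untreated pair. The median of -0.44 became -0.22 without background correction and -0.05 over 17 genes without the detection filter or floor. At a detection p under 0.05 it was -0.49. Collagen IV, the network of basement membranes, divided by chain pair among the chains in the list. COL4A5 had 7.81 in the LZTFL1-labelled and 9.21 in the GFP-labelled library (-1.41), and COL4A6, which lies head to head with it, had 5.69 and 7.15 in the same order (-1.47). COL4A1 and COL4A2, another head-to-head pair, were at 0.50 and 0.33. The collagen list as a whole held 6 genes above 0 and 5 below (median 0.06).

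**Figure D2:**
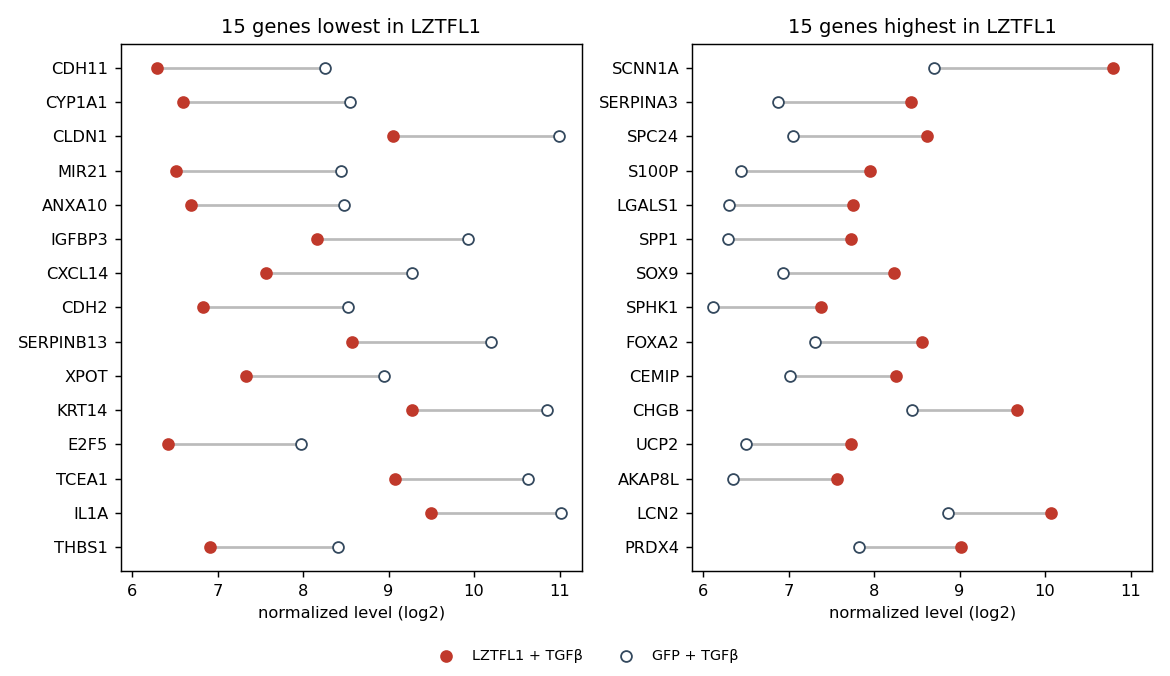
Normalized log2 levels of the 15 genes with the lowest and the 15 with the highest difference among genes detected on both arrays, with filled points for LZTFL1 + TGFβ and open points for GFP + TGFβ, 1 array each. CDH11 and SCNN1A head the 2 panels, and the levels run from about 6 to 11.

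Of the cadherins, 2 found in mesenchymal cells were past 2-fold lower. CDH11, a cadherin of mesenchymal cells, had 6.29 in the LZTFL1-labelled and 8.26 in the GFP-labelled library, a difference of -1.97. N-cadherin (CDH2), whose gain over E-cadherin is the classical switch of EMT, had 6.83 in the LZTFL1-labelled and 8.52 in the GFP-labelled library, a difference of -1.69. The stromal collagens COL1A1, COL1A2 and COL3A1 and the stromal markers DCN, LUM and PDGFRB were detected on neither array. E-cadherin (CDH1) was at -0.16 and P-cadherin (CDH3) at -0.19, so both mesenchymal cadherins were lower while the epithelial ones lay near 0. The catenins were all between -0.12 and 0.06. Of the 8 genes in that list 2 were past 2-fold, 7 were below 0 and the median was -0.14.

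Junction lists had small medians and a few genes past 2-fold, all lower. Claudin 1 (CLDN1), a tight junction strand protein, had 9.06 in the LZTFL1-labelled and 10.99 in the GFP-labelled library, a difference of -1.93. LSR (0.65) and CRB3 (0.60), a polarity protein, were higher by less than 2-fold, CLDN3 was at least 0.80 higher, and 7 of the 10 tight junction genes lay above 0 (median 0.13). In the desmosome list desmoplakin (DSP) had 8.0 in the LZTFL1-labelled and 9.01 in the GFP-labelled library (-1.02), desmoglein 3 (DSG3) had 8.16 and 9.17 in the same order (-1.01), and DSC3 was at -0.69. Of its 12 genes 8 lay below 0 (median -0.11), with periplakin (PPL) an exception at 0.75. Integrin α2 (ITGA2), the collagen receptor, had 8.19 in the LZTFL1-labelled and 9.29 in the GFP-labelled library (-1.10), and dystonin (DST), the plakin of hemidesmosomes, was at -0.95. In the hemidesmosome and integrin list 8 of 11 lay below 0 (median -0.24).

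Basal and squamous identity genes gave a mixed picture in which KRT14 stood out. KRT14, the keratin of basal cells, had 9.27 in the LZTFL1-labelled and 10.85 in the GFP-labelled library, a difference of -1.58, while its partner KRT5 was at -0.03. KRT15 was at -0.64, SERPINB5 at -0.46 and SOX2 at 0.15, and 7 of 9 in the list lay below 0 (median -0.30). The serpin SERPINB13, expressed in stratified epithelium, had 8.57 in the LZTFL1-labelled and 10.20 in the GFP-labelled library (-1.63). Cornified envelope genes lay mostly above 0, 9 of 13 (median 0.18), led by PI3 (elafin) at 0.83, SPRR3 at 0.61 and SPRR2D at 0.59. SERPINB13 belongs to the same list and was its only gene past 2-fold. Simple epithelial genes were balanced, 8 above 0 and 7 below (median 0.03). KRT8 was at 0.91 and RAB25, an epithelial trafficking GTPase, at 0.86, against MAL2 at -0.83 and EHF at -0.81.

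Of the transcription factors tied to EMT, FOXQ1 alone was past 2-fold. FOXQ1, a forkhead factor, had 7.80 in the LZTFL1-labelled and 9.27 in the GFP-labelled library, a difference of -1.47. Slug (SNAI2) had 9.15 in the LZTFL1-labelled and 10.10 in the GFP-labelled library, -0.95, and TCF4 was at -0.72. Of the 6 measured factors 5 lay below 0 (median -0.48), with TWIST2 the exception at 0.14, and SNAI1, ZEB1, ZEB2 and PRRX1 had no measured value here. The size of that median depended on the processing. It was -0.22 without background correction, -0.12 over 11 genes without the detection filter or floor, and -0.72 over genes detected on both arrays. Vimentin (VIM), the mesenchymal intermediate filament, was at 0.27. LCP1 (L-plastin), an actin bundler, was detected in the GFP-labelled library alone and was at least 1.43 lower in the LZTFL1-labelled library. THY1, a surface glycoprotein of stromal and stem cells, had 9.41 in the LZTFL1-labelled and 10.78 in the GFP-labelled library (-1.37).

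Cytokine genes held other strong differences. Interleukin 1α (IL1A), an alarm cytokine stored in keratinocytes, had 9.50 in the LZTFL1-labelled and 11.01 in the GFP-labelled library, a difference of -1.51, against -2.75 in the untreated pair. CXCL14, a chemokine made by epithelium, had 7.56 in the LZTFL1-labelled and 9.27 in the GFP-labelled library, a difference of -1.71, against -0.25 in the untreated pair. IL1A was thus past 2-fold lower in both pairs, and CXCL14 in the TGFβ-labelled pair but not the other, a contrast that was not tested. Both promoters hold TGANTCA, in capitals below, 12 bases before the start of IL1A (chr2:112784494-112784743, minus strand) and 92 bases before that of CXCL14 (chr5:135578992-135579241, minus strand), and IL1A also holds TATAAA in capitals near its far end.
IL1A: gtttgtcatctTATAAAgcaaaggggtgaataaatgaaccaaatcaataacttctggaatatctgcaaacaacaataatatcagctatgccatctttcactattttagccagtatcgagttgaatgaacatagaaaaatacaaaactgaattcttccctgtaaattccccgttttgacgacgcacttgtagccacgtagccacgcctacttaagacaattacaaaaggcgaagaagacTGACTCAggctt
CXCL14: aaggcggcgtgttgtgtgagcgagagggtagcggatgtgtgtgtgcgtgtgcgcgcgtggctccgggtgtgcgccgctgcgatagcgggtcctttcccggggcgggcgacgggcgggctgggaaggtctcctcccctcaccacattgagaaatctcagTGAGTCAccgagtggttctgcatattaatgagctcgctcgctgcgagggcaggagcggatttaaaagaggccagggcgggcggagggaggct
Of 15 inflammatory genes 11 lay below 0 (median -0.39, against -0.60 in the untreated pair), among them IL32 (at least 0.91 lower), IL6 at -0.83 and TNFAIP3, the NF-κB inhibitor A20, at -0.61. Lymphotoxin β (LTB) was at -0.56 in the TGFβ-labelled pair and -2.66 in the untreated pair. The 4 exceptions included lipocalin 2 (LCN2), an iron-binding defence protein, with 10.07 in the LZTFL1-labelled and 8.86 in the GFP-labelled library (1.21). TNFAIP2, at least 0.81 higher, was another. CXCL8 (interleukin 8) at 0.57 and CCL20 at 0.47 were also above 0, so the chemokines did not share the difference of CXCL14. Their list median of 0.23 over 6 genes turned to -0.01 without the detection filter.

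No gene of the TGFβ pathway list was called 2-fold, and 15 of 21 lay below 0 (median -0.21, against -0.03 in the untreated pair). Follistatin (FST), which binds activin, had 11.17 in the LZTFL1-labelled and 12.13 in the GFP-labelled library (-0.96). PMEPA1, a direct SMAD target that dampens the signal, had 6.21 in the LZTFL1-labelled and 7.16 in the GFP-labelled library (-0.95). The type II receptor TGFBR2 had 6.11 in the LZTFL1-labelled and 6.88 in the GFP-labelled library (-0.77), and the co-receptor TGFBR3 was at -0.77. In the untreated pair FST was at -0.08, PMEPA1 at 0.15 and TGFBR2 at 0.10. These 3 were thus near 0 there and 0.77 to 0.96 lower in the TGFβ-labelled pair. Their levels were lower in the TGFβ-labelled than in the untreated libraries (PMEPA1 6.21 and 7.16 against 9.53 and 9.38, as above). TGFBR3 did not share the contrast, at -0.77 in the TGFβ-labelled and -0.71 in the untreated pair. The inhibitory SMAD6 (0.55) and the signalling SMAD3 (0.45) were above 0, while SMAD7 (-0.14), ID1 (0.08) and CCN2 (-0.33) lay closer. CCN1 and CCN2, matrix-associated signalling proteins also driven by YAP, were at -0.65 and -0.33 in the TGFβ-labelled pair and at 0.46 and 0.45 in the untreated pair.

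Amino acid response genes were lower as a list. ATF4 directs transport and synthesis of amino acids when these run short, and 20 of 23 of its known targets and partners lay below 0 (median -0.32, against -0.36 in the untreated pair). CHAC1, which degrades glutathione, had 6.16 in the LZTFL1-labelled and 7.64 in the GFP-labelled library (-1.48). VLDLR, a lipoprotein receptor, had 6.87 in the LZTFL1-labelled and 8.02 in the GFP-labelled library (-1.15). Under 2-fold were STC2 (-0.90), the cystathionine lyase CTH (-0.89), the serine synthesis enzymes PSPH (-0.75) and PSAT1 (-0.69), and the kinase-like TRIB3 (-0.41). ATF4 mRNA was at 0.06 and its own level did not share their difference. The cystine importer SLC7A11 was detected in the GFP-labelled library alone, at least 1.40 lower, against -0.13 in the untreated pair. The promoter of CHAC1 is shown for the letters TGATGNAA of the C/EBP-ATF response element, found on the opposite strand, in capitals, 209 bases before the start (chr15:40953221-40953470, plus strand).
CHAC1: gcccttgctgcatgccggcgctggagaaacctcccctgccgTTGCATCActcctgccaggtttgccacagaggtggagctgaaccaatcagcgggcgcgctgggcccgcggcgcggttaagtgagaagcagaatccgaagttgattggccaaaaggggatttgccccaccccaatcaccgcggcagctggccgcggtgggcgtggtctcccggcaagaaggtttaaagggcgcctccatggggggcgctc
These letters were in 7.69% of the lower promoters (ARID5B, CHAC1, DSG3, MYLK and SLC1A3), on either strand. They were in 4.17% of the higher promoters (S100P) and in 1.32% of all. The endoplasmic reticulum chaperone list had 12 of 15 genes below 0 but a median of -0.05, with XBP1, a factor of the unfolded protein response, at -0.90 and the chaperone HSPA5 at -0.52.

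Some lower genes belonged to none of these groups. IGFBP3, which sequesters insulin-like growth factors, had 8.16 in the LZTFL1-labelled and 9.93 in the GFP-labelled library (-1.77), with -1.71 on its other probe. Annexin A10 (ANXA10), a calcium-dependent membrane binder, had 6.68 in the LZTFL1-labelled and 8.48 in the GFP-labelled library (-1.79). CYP1A1, the monooxygenase induced by the aryl hydrocarbon receptor, had 6.60 in the LZTFL1-labelled and 8.55 in the GFP-labelled library (-1.95). Other genes of that receptor did not follow, with CYP1B1 at 0.11, TIPARP at 0.56 and NQO1 at 0.61. XPOT, the tRNA exporter, had 7.33 in the LZTFL1-labelled and 8.95 in the GFP-labelled library (-1.61). The hypoxia-induced NDRG1 had 9.19 in the LZTFL1-labelled and 10.28 in the GFP-labelled library (-1.09), in a list of 22 whose median was 0.00. Genes detected in the GFP-labelled library alone included STOM (stomatin, at least 1.83 lower, and at least 0.24 lower on its other probe), DAPL1 (at least 1.60), ZC2HC1A (at least 1.49), GNG12, a G protein γ subunit (at least 1.46), and SLC35G1 (at least 1.40). Chosen after their values were seen, the Notch ligand DLL1 (8.65 in the LZTFL1-labelled and 10.09 in the GFP-labelled library), the survival factor BCL2 (7.85 and 9.10, same order), the factor ETS2 (7.29 and 8.52), the amyloid precursor APP (8.85 and 10.02) and the membrane repair protein MYOF (9.71 and 10.80) were lower by 1.10 to 1.44. For APP, BCL2 and MYOF every other measured probe was also past 2-fold lower.

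MIR21 is the gene of microRNA 21, which targets mRNAs of several tumor suppressors and whose processing SMADs can promote. The mature sequence is printed to identify it, with the seed (bases 2 to 8), by which it pairs with targets, in capitals (RefSeq, GRCh38.p14, chr17:59841273-59841294, plus strand).
hsa-miR-21-5p: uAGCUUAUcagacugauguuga
The probe annotated to MIR21 had 6.51 in the LZTFL1-labelled and 8.44 in the GFP-labelled library, a difference of -1.93, and -2.0 in the untreated pair. An mRNA array reads a longer transcript of the locus, so the level of the mature microRNA was not measured. VMP1, the gene that runs into MIR21, was at -0.08 on its own probe, with 11.07 in the LZTFL1-labelled and 11.15 in the GFP-labelled library.

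The highest gene was the epithelial sodium channel subunit α. SCNN1A had 10.80 in the LZTFL1-labelled and 8.70 in the GFP-labelled library, 2.10 or 4.29-fold higher, and it was the only gene past 4-fold in that direction. Prostasin (PRSS8), the membrane protease that activates the channel, had 9.66 in the LZTFL1-labelled and 8.61 in the GFP-labelled library (1.05). The ubiquitin ligase NEDD4L, which removes the channel from the surface, and the kinase SGK1, which opposes that ligase, were each at -0.55. The Na,K-ATPase subunits ATP1B1 (-0.49) and ATP1B3 (-0.64) were below 0 and the carbonic anhydrase CA12 (0.61) above. The list of 11 held 6 genes above 0 and 5 below, with a median of 0.11 that turned to -0.01 without the detection filter.

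Other higher genes code for secreted, calcium-binding or metabolic proteins. Lists that hold some of them leaned little to that side, where 52.8% of all genes lay above 0. Of the acute phase and complement genes 4 of 7 lay above 0 (median 0.03). Annexins and galectins had 7 of 13 above 0 (median 0.08), with ANXA10 among them at -1.79. Peroxide and superoxide enzymes had 9 of 14 (median 0.13), and UCP2 and SPHK1 belonged to no list. SERPINA3, the antichymotrypsin of the acute phase, had 8.44 in the LZTFL1-labelled and 6.87 in the GFP-labelled library (1.56), and SLPI, an elastase inhibitor of the airway, was at 0.86. S100P had 7.95 in the LZTFL1-labelled and 6.45 in the GFP-labelled library (1.51), and S100A13 was at 1.09, with 0.74 on its other probe. Of the 13 measured S100 genes 10 lay above 0 (median 0.38, against 0.15 in the untreated pair), among them S100A6 at 0.60 and S100A4 at 0.45. Galectin 1 (LGALS1), a β-galactoside-binding lectin, had 7.75 in the LZTFL1-labelled and 6.30 in the GFP-labelled library (1.45), and LGALS3 was at 0.60. Chromogranin B (CHGB), a secretory granule protein and neuroendocrine marker, had 9.68 in the LZTFL1-labelled and 8.45 in the GFP-labelled library (1.23). It was at 1.54 in the untreated pair, and the neuroendocrine markers CHGA and SYP were not detected. PRDX4, the peroxiredoxin of the endoplasmic reticulum, had 9.02 in the LZTFL1-labelled and 7.82 in the GFP-labelled library (1.20). UCP2, a mitochondrial carrier, had 7.73 in the LZTFL1-labelled and 6.50 in the GFP-labelled library (1.22), and SPHK1, which makes sphingosine 1-phosphate, had 7.38 in the LZTFL1-labelled and 6.11 in the GFP-labelled library (1.27).

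Lung and epithelial differentiation factors lay on both sides, 6 of 10 above 0 and 4 below, with 2 past 2-fold higher and 1 lower. The list median of 0.16 turned to -0.06 without the detection filter. FOXA2, a pioneer factor of lung and airway epithelium, had 8.57 in the LZTFL1-labelled and 7.31 in the GFP-labelled library (1.26). SOX9, a factor of the distal lung bud, had 8.24 in the LZTFL1-labelled and 6.93 in the GFP-labelled library (1.30). CEBPA, a myeloid and alveolar factor, was at 0.52 and FOXA1 at 0.24, while KLF4, a factor of epithelial differentiation, was at -0.60 and CEBPD, a stress-induced relative, had 9.17 in the LZTFL1-labelled and 10.21 in the GFP-labelled library (-1.04). NKX2-1, the master factor of lung epithelium, and all but 2 of the lung secretory genes had no measured value. The only gene of 20 interferon and MHC genes past 2-fold was ISG15, a ubiquitin-like modifier, at 1.02. That list held 10 genes above 0 and 10 below. The genes detected in the LZTFL1-labelled library alone were led by MIR1282 (at least 1.14 higher), the lysosomal phosphatase ACP2 (at least 1.12) and LINC00997 (at least 1.09). ACP2 was at -0.09 in the untreated pair.

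Genes of division lay slightly higher as a list. Of 34 cell cycle genes 30 were above 0 (median 0.28, against 0.15 with 23 above 0 in the untreated pair), and none reached 2-fold. The checkpoint kinase BUB1B was at 0.95, survivin (BIRC5) at 0.74, E2F2 at 0.59 and cyclin B2 at 0.58, with PLK1 (-0.25) and MCM4 (-0.28) among the 4 below. BUB1B was at -0.34 in the untreated pair. SPC24, a subunit of the NDC80 complex that ties kinetochores to microtubules, had 8.62 in the LZTFL1-labelled and 7.06 in the GFP-labelled library (1.56). Its partner SPC25 was at 0.65 and NDC80 itself at 0.14, and 17 of 24 kinetochore genes lay above 0 (median 0.22). HJURP, the chaperone of the centromeric histone, was chosen after its value was seen and had 9.26 in the LZTFL1-labelled and 8.09 in the GFP-labelled library (1.17), against 0.06 in the untreated pair. E2F5, a repressive E2F factor, was lower, with 6.42 in the LZTFL1-labelled and 7.98 in the GFP-labelled library (-1.56).

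Pathways linked to the known partners of LZTFL1 held 1 gene past 2-fold. Of 26 BBSome and intraflagellar transport genes 19 lay below 0 (median -0.19 in both pairs), and only WDR19, a subunit of the retrograde transport complex, was past 2-fold, with 6.02 in the LZTFL1-labelled and 7.06 in the GFP-labelled library (-1.05). BBS1 (-0.67) and the dynein subunit DYNC2LI1 (-0.62) were lower by less than 2-fold, BBIP1 was at least 0.72 lower and IFT172 at least 0.34 higher. Among 6 Hedgehog genes GLI2 was at -0.62 and the receptor PTCH1, a target of the pathway, was at least 0.25 lower, while SMO (-0.01) and GLI1 (0.02) differed little. The Hedgehog median was -0.04, and 0.00 over genes detected on both arrays. Of 16 MAPK output genes 10 lay above 0 (median 0.25, against 0.29 in the untreated pair), led by the feedback inhibitor SPRY2 (0.80) and the ETS factor ETV4 (0.77).

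**Figure D3:**
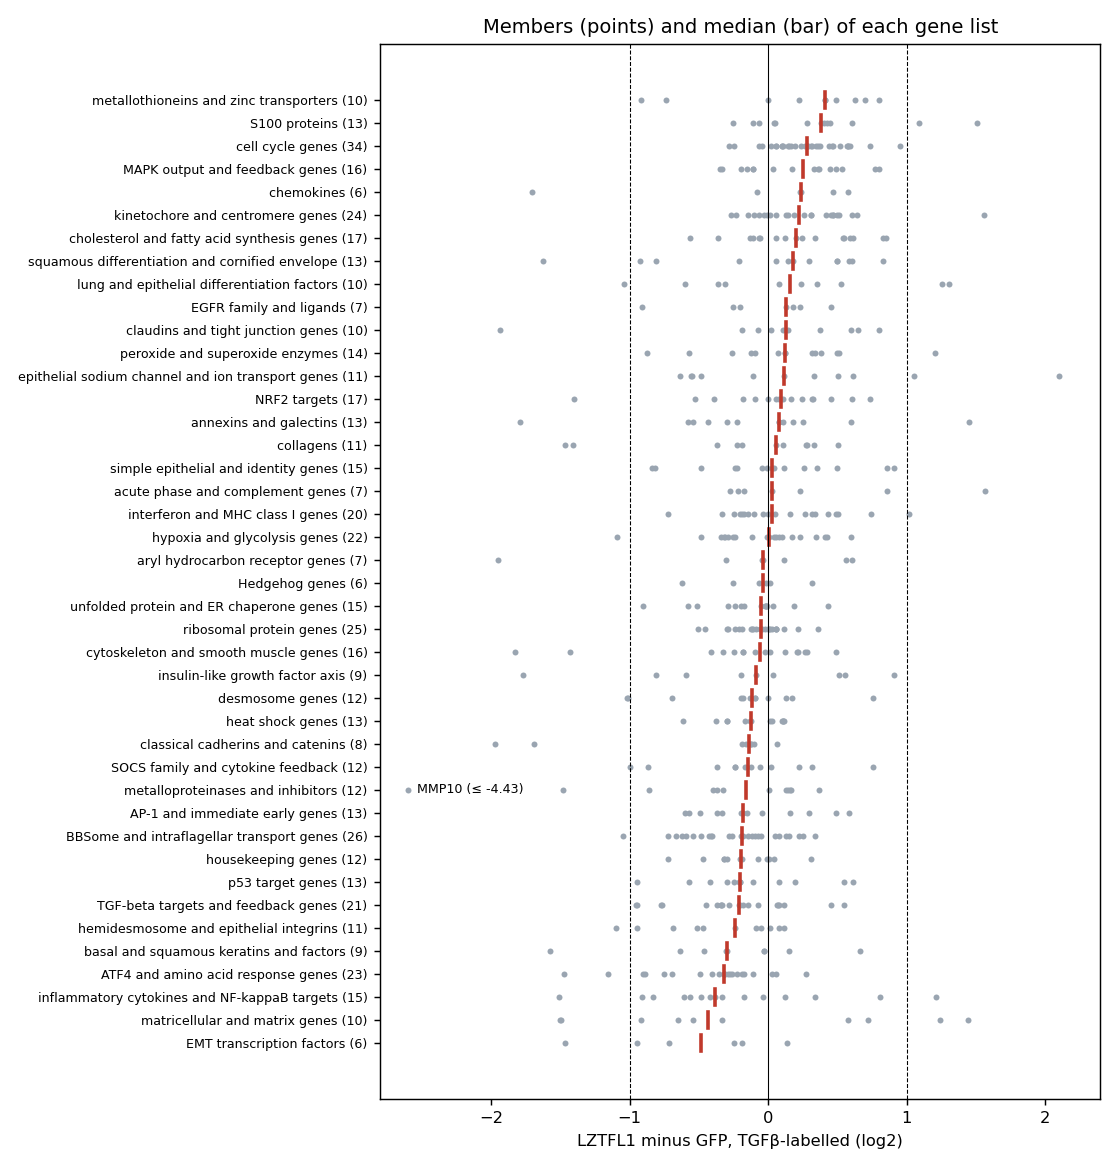
Each line down the page is 1 gene list with at least 5 measured genes (number in parentheses), each point a measured gene's LZTFL1 minus GFP difference in the TGFβ-labelled pair on the log2 scale, and each bar the list median, with MMP10 (-4.43, a bound) drawn at the left edge. Medians run from -0.48 for the EMT factors to 0.41 for metallothioneins and zinc transporters, and single genes such as SCNN1A at 2.10 lie far from their list's bar.

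Metabolic lists held few genes past 2-fold. Sterol and fatty acid synthesis genes lay above 0 in 11 of 17 (median 0.20, against 0.01 in the untreated pair), with CYP51A1 at 0.85, FDPS at 0.83 and HMGCS1 at 0.61. CYP51A1 was at -0.32 in the untreated pair. Metallothioneins and zinc transporters lay above 0 in 8 of 10 (median 0.41), led by MT2A at 0.80 and the exporter SLC30A1 at 0.70. NRF2 targets had a median of 0.09, with heme oxygenase HMOX1 at 0.74 and SLC7A11, given above, past 2-fold lower. Among p53 targets 9 of 13 lay below 0 (median -0.20), led by RRM2B at -0.95, while the apoptotic BAX was at 0.61. Housekeeping genes had a median of -0.20 over 12 and ribosomal protein genes one of -0.05 over 25, which turned to 0.09 under median scaling. The sizes of many list medians above were thus no larger than that of the housekeeping list.

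The genes past 2-fold in the TGFβ-labelled pair mostly kept their direction in the untreated pair, which used other arrays of the same 2 vectors and shares no array with this one. Whether the cells of both pairs came from the same transfected cultures is not stated, so their likeness is no replicate of the vector. All 38 higher genes were measured there, 35 in the same direction and 17 past 2-fold higher, with a median of 0.90. All 82 lower genes were measured there, 76 in the same direction and 34 past 2-fold lower, with a median of -0.84. Of all 10443 genes of the untreated pair 0.488% were past 2-fold higher, 0.661% past 2-fold lower, 49.7% above 0 and 49.5% below 0. Over the 9309 genes measured in both pairs 50.3% were above 0 and 49.5% below in the untreated pair, and 0.537% and 0.709% were past 2-fold. Besides CXCL14, SLC7A11 and HJURP, ADAM9 (-1.48, and -0.42 untreated) and XPOT (-1.61 and -0.46) had the larger value in the TGFβ-labelled pair. So did GNG12 (at least 1.46 lower, and -0.04 untreated), SERPINA3 (1.56 and 0.44) and S100P (1.51 and 0.47). IL1A (-2.75 untreated), IGFBP3 (-2.27) and CEBPD (-1.61) had the larger one in the untreated pair. The differences between the pairs were not tested, since each rests on 4 single arrays.

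**Figure D4:**
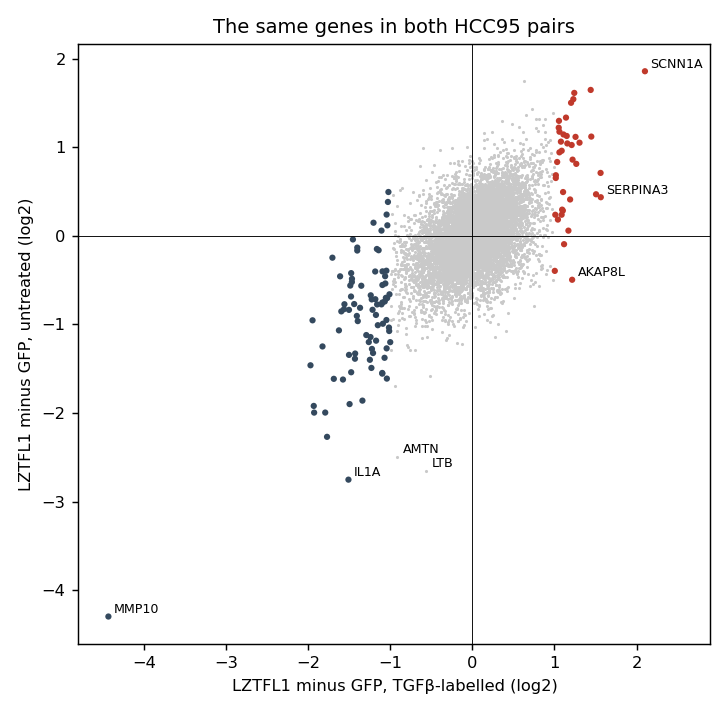
Each point is a gene measured in both HCC95 pairs, with LZTFL1 minus GFP on the log2 scale in the TGFβ-labelled pair on the horizontal axis and untreated on the vertical axis, coloured where the TGFβ-labelled pair is past 2-fold. MMP10 lies at the lower left (-4.43 and -4.30, the first a bound) and SCNN1A at the upper right, and 3 higher and 6 lower coloured genes have the opposite sign untreated.

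Other probes gave the same direction for nearly all genes that had one. Of the 2-fold genes 26 had 31 other measured probes, of which 30 shared the direction and 12, from 10 genes, were past 2-fold. ATP2C1, a Golgi calcium pump, was the exception, at -1.16 on its main probe and 0.32 and -0.03 on others. SNAP23 (-0.04), SNX5 (-0.19) and ATAD1 (-0.17) had other probes near 0. Over 1908 genes with several probes the pooled SD between probes of a gene was 0.270 on the log2 scale, which measures agreement within these 2 arrays and not between cultures.

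The differences also varied with where genes lie and how long they are. Among genes detected on both arrays, those of chromosome 8, 297 of the 8578 with a chromosome, had a median of -0.22 in the TGFβ-labelled pair and -0.25 in the untreated pair, and 74.7% were below 0, against 47.0% of all genes. Relative to all genes that median was -0.24 with the main scaling. The 5 genes there that were 2-fold lower were E2F5, TCEA1, ADAM9, NDRG1 and CEBPD. That was 5 of 297, against 68 of all 8586 genes detected on both arrays, 5 of 244 on chromosome 4 and 4 of 118 on chromosome 18. No gene of chromosome 8 was 2-fold higher, which also held for chromosomes 3, 5, 7, 10, 13, 18 and 21. ZC2HC1A, a bound and so outside these counts, lies on chromosome 8 too. TCEA1, a transcription elongation factor, had 9.07 in the LZTFL1-labelled and 10.63 in the GFP-labelled library (-1.56). Chromosomes 18 and 21 had medians of -0.13 each, and chromosome 17 one of 0.16. By length, 27 (1.57%) of the 1716 longest genes, 79.8 kb and over, were 2-fold lower and 2 (0.117%) were higher. Of the 1717 shortest, up to 8.39 kb, 8 genes (0.466%) were lower and 16 (0.932%) higher. The part of chromosome or gene length in the differences of single genes was not tested.

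**Figure D5:**
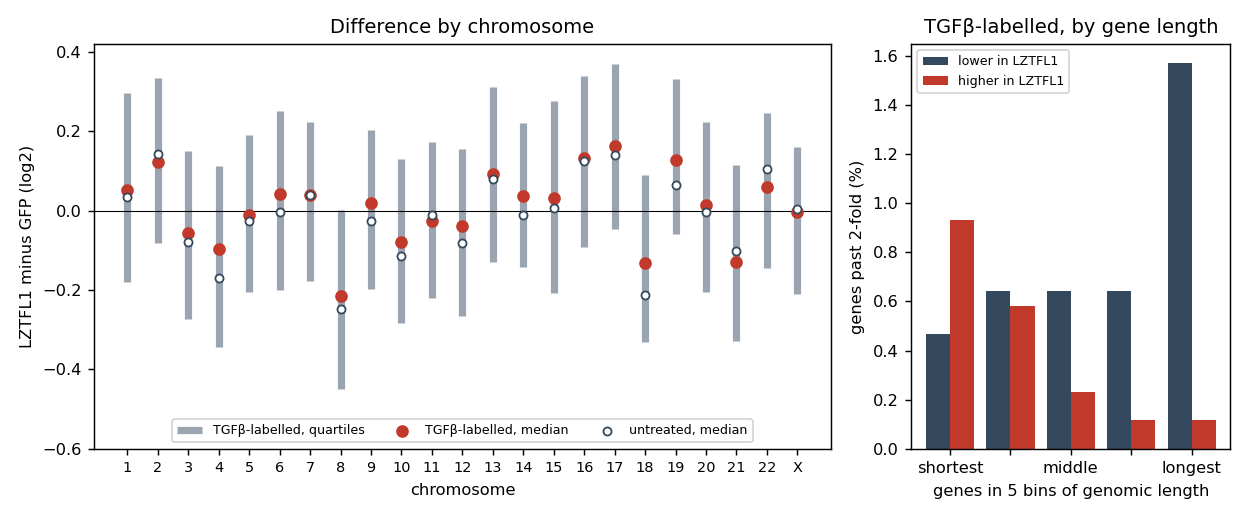
Left, the LZTFL1 minus GFP difference by chromosome on the log2 scale, with bars for the quartile range and filled points for the median of the TGFβ-labelled pair, and open points for the untreated median. Right, the percent of genes past 2-fold lower and higher in 5 equal bins of gene length, where the longest bin holds 1.57% lower and 0.117% higher.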

How the data were processed

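The authors deposited non-normalized probe intensities, each with a detection p-value, and a table of processed intensities, from Illumina HumanHT-12 v4 arrays of HCC95 and H460 cells. The tool was GenomeStudio 2011.1 per the submitters' processing notes, with settings not given in the sources used. All 6 arrays were processed together from the non-normalized intensities with neqc of limma 3.58.1 in R 4.3.3, which corrects background from the detection p-values, adds an offset of 16, quantile-normalizes and takes log2. The offset draws dim genes together and understates their folds. Spreads, medians and counts were computed with Python 3.11.15 and pandas 2.3.3.

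A single symbol was annotated for 30113 of the 47323 probes, and 17202 had no listed gene. The brightest probe by its mean over all arrays stood for a gene. Undetected values were set no lower than the lowest detected level of their array, and a difference was taken as 0 where the undetected side then came out higher. Genes past 2-fold, 1 on the log2 scale, were counted with no test, and the number of arrays limits the precision.

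The pair, the 48 gene lists and the motifs were chosen with earlier results of these data known. Genes were named by rule: LZTFL1, the 15 highest and 15 lowest detected on both arrays, the 8 largest bounds in each direction, each list's members past 2-fold and its 4 members furthest from 0, and cell type markers. Other named genes were chosen after their values were seen. Alternatives were median scaling, no background correction, an offset of 50, the deposited processed intensities, normalizing the 2 arrays alone, other detection filters and the mean of a gene's probes. Counting was tested on simulated data.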

Additional observations from a re-analysis of the deposited data

Results flagged for a closer look

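Of the genes past 2-fold in the TGFβ-labelled pair, 3 higher and 6 lower ones had the opposite sign in the untreated pair. Described here are the 3 of these detected on all 4 arrays whose untreated difference was larger than the SD between probes, 0.270. These differences between the pairs were not tested. AKAP8L, a nuclear protein related to kinase anchors, was 1.22 higher (7.57 in the LZTFL1-labelled and 6.35 in the GFP-labelled library, TGFβ-labelled) and at -0.50 untreated (6.16 in the LZTFL1-labelled and 6.66 in the GFP-labelled library). MOCS2, an enzyme of molybdenum cofactor synthesis, was at -1.02 in the TGFβ-labelled pair (6.25 in the LZTFL1-labelled and 7.27 in the GFP-labelled library) and at 0.49 untreated (7.28 in the LZTFL1-labelled and 6.78 in the GFP-labelled library). SNX5, a sorting nexin, was at -1.03 in the TGFβ-labelled pair (8.46 in the LZTFL1-labelled and 9.48 in the GFP-labelled library) and at 0.38 untreated (9.54 in the LZTFL1-labelled and 9.15 in the GFP-labelled library), and its other probe was at -0.19 and -0.29.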

How the results depend on the processing

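The counts of 38 higher and 82 lower genes depended mainly on how dim signals were treated. Without background correction they were 5 and 25, which put the higher genes at 16.7% of the 2-fold genes against 31.7%, and with an offset of 50 they were 15 and 45. Without a detection filter or floor they were 108 and 150, over more genes tested, and at a detection p under 0.05 they were 63 and 116. Median scaling, the processed intensities, the 2 arrays normalized alone, genes detected on both arrays and the mean of a gene's probes gave 34 to 40 higher and 68 to 82 lower. No named gene turned its direction past 2-fold under these alternatives. Of 59 named genes past 2-fold, 36 fell under it without background correction and 17 with an offset of 50, both of which draw dim values together, and at most 4 under the others. No paired analysis was possible because each group has 1 array and all carry the same replicate number. With 1 array a group, no difference here can be set against the spread between cultures.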

Other observations

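Small nuclear and Cajal body RNA genes, taken by name after their values were seen, lay above 0 in 17 of 18 measured, with a median of 0.67. Of the 18, 3 were past 2-fold higher and 0 lower. Among all measured genes 52.8% lay above 0, 0.401% were past 2-fold higher and 0.865% past 2-fold lower. The Cajal body RNA SCARNA16, which guides modification of spliceosomal RNA, had 8.78 in the LZTFL1-labelled and 7.67 in the GFP-labelled library (1.11), SCARNA8 had 7.74 in the LZTFL1-labelled and 6.68 in the GFP-labelled library (1.06), and the U1 gene RNU1-3 had 9.18 in the LZTFL1-labelled and 8.10 in the GFP-labelled library (1.08). In the untreated pair they were at 1.14 (SCARNA16), 1.18 (SCARNA8) and 1.06 (RNU1-3). Many of these genes have near-identical copies, so a probe may read several.

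AMTN, amelotin, a secreted protein of mineralised tissue, was detected in the GFP-labelled library alone in the TGFβ-labelled pair, at least 0.91 lower in the LZTFL1-labelled library, and was at -2.49 in the untreated pair. Of 2958 detected probes with no listed gene, 14 were 2-fold higher in the LZTFL1-labelled library and 23 were lower, and they are not named here.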
